A study of Mus musculus with 31 samples.

Results

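The genes described here mark the epithelium of the choroid plexus, and they were read in RNA sequencing of 31 mouse hippocampi, 1 library per mouse. Of the 8 names chosen, 7 had a locus in the deposited table of 27094 loci (Ttr, Enpp2, Folr1, Sostdc1, Aqp1, Clic6 and Otx2), and for each name the locus with the highest mean over the 31 mice was taken. All 7 passed the filter on low values that 17139 loci passed. Expression of Kl, which encodes klotho, was not analysed here. The groups were db/db-IF (n = 10), db/db (n = 10) and db/m (n = 11), all male mice of the C57BLKS/J strain given as 3 months of age in the labels. db/db mice are homozygous for the Lepr db mutation, a leptin receptor defect that gives obesity and type 2 diabetes. The db/db-IF mice were db/db mice on intermittent fasting, in which food was withheld for 24 h every other day over 28 days and was free in between. db/m mice were heterozygous littermates, so the control group also carried 1 copy of the mutation, and db/db mice were fed ad libitum throughout. The labels, the table's headers and the study's sequencing summary place the same mice in each group, while a figure legend of the study gives other group sizes for the fed and fasted db/db mice. The study's aim was to learn what fasting does to the hippocampus of diabetic mice, so db/db-IF against db/db asks about fasting and db/db against db/m about the diabetic genotype.

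The choroid plexus is a sheet of epithelium over fenestrated capillaries that hangs in the brain ventricles and secretes cerebrospinal fluid. It lies against the hippocampus in the lateral ventricle, so a dissected hippocampus can carry more or less of it. Its epithelium moves water and ions from blood to fluid, carries vitamins and hormones and releases growth factors and binding proteins. In a bulk sample, fewer choroid plexus cells and less of a transcript per cell cannot be told apart. Values are FPKM, fragments scaled by transcript length and by all mapped fragments, which allow levels of different genes to be compared.

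The 31 libraries were alike in summed FPKM and in the number of loci above 1 FPKM, but not in their trend on transcript length. Their FPKM summed to between 1385521 and 1462222, and between 16242 and 17172 loci lay above 1 FPKM. Read counts per locus were not among the values used, so the reads behind a value are unknown. Summed FPKM of 12 hippocampal neuron markers ran from 780.1 to 1055 in db/db-IF mice, from 766.2 to 1095 in db/db mice and from 664.3 to 915.2 in db/m mice, so the labelled tissue was present in every library. The slope of each library's deviation on log transcript length was below 0 in all db/db-IF mice (-0.240 to -0.045) and above 0 in all db/m mice (0.0014 to 0.0829), while db/db mice ran from -0.0403 to 0.0724. The mice also fell into 2 sets of base quality, 16 mice in the lower and 15 in the higher one, and each set held mice of all 3 groups.

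Ttr encodes transthyretin, the carrier of thyroxine and retinol-binding protein that choroid plexus epithelium secretes into the fluid. Ttr lies on chromosome 18 (20664209 to 20674326, GRCm38.p6). In db/db-IF mice Ttr had a lowest value of 4208, a median of 20625 and a highest value of 31657 FPKM. In db/db mice it had 762.2, 8736 and 26189 FPKM as lowest, median and highest values, and in db/m mice 660.0, 18552 and 32960 FPKM. The groups overlapped over most of their range, and the lowest values were those of 1 db/db and 1 db/m mouse. The highest db/m value was 49.9 times the lowest db/m value, against a ratio of 34.4 among db/db mice and of 7.52 among db/db-IF mice. Ttr alone made up between 0.304% and 2.17% of summed FPKM in db/db-IF mice, between 0.054% and 1.83% in db/db mice and between 0.0472% and 2.30% in db/m mice. The within-group SD of Ttr was 1.73 on the log2(FPKM + 1) scale, above that of 99.7% of the tested loci, whose median SD was 0.179.

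The other secreted and carrier genes were present at far lower levels than Ttr. Enpp2 (chromosome 15, 54838901 to 54952789) encodes autotaxin, the secreted enzyme that makes lysophosphatidic acid, and oligodendrocytes express it too. Enpp2 had lowest, median and highest values of 28.9, 115.2 and 224.5 FPKM in db/db-IF mice, of 46.1, 83.2 and 151.0 FPKM in db/db mice and of 47.1, 173.1 and 259.6 FPKM in db/m mice. The groups overlapped, although the db/m median lay above the highest db/db value. Folr1 (chromosome 7, 101858331 to 101870788) encodes folate receptor alpha, which takes folate across the epithelium into the fluid. Folr1 had lowest, median and highest values of 0.840, 2.37 and 4.53 FPKM in db/db-IF mice, of 0.281, 1.01 and 2.73 FPKM in db/db mice and of 0.399, 1.82 and 3.60 FPKM in db/m mice. Folr1 exceeded its median over the 31 mice in 7 of 10 db/db-IF mice, in 2 of 10 db/db mice and in 6 of 11 db/m mice. Sostdc1 (chromosome 12, 36314169 to 36318452) encodes a secreted antagonist of bone morphogenetic protein and Wnt signals. Sostdc1 had lowest, median and highest values of 1.16, 2.67 and 4.84 FPKM in db/db-IF mice, of 0.925, 2.37 and 3.80 FPKM in db/db mice and of 0.993, 3.28 and 7.25 FPKM in db/m mice. The highest Sostdc1 values were those of db/m mice, and the lowest values of the 3 groups were close to each other.

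Aqp1 and Clic6 belong to water and ion handling. Aqp1 (chromosome 6, 55336299 to 55348555) encodes the water channel of the fluid-facing membrane of the epithelium. Aqp1 had lowest, median and highest values of 1.97, 5.01 and 9.15 FPKM in db/db-IF mice, of 0.944, 2.29 and 4.98 FPKM in db/db mice and of 1.17, 8.71 and 14.4 FPKM in db/m mice. The highest db/db value lay below the medians of both other groups, and 2 of 10 db/db mice exceeded the median of the 31 mice, against 7 of 11 db/m mice. Clic6 (chromosome 16, 92498147 to 92541241) encodes a member of the chloride intracellular channel family. Clic6 had lowest, median and highest values of 10.9, 23.3 and 42.9 FPKM in db/db-IF mice, of 6.86, 14.7 and 29.9 FPKM in db/db mice and of 4.61, 29.3 and 47.7 FPKM in db/m mice. Otx2 (chromosome 14, 48656781 to 48667644) encodes the homeodomain transcription factor that choroid plexus epithelium needs in order to form. Otx2 had lowest, median and highest values of 2.08, 4.40 and 13.1 FPKM in db/db-IF mice, of 0.674, 3.20 and 6.40 FPKM in db/db mice and of 0.781, 5.15 and 8.61 FPKM in db/m mice. In the order of mean levels over the 31 mice, Ttr (14648 FPKM) stood far above Enpp2 (124.1 FPKM) and Clic6 (22.5 FPKM), whose ranges overlapped. Aqp1 (5.05 FPKM), Otx2 (4.43 FPKM), Sostdc1 (2.88 FPKM) and Folr1 (1.82 FPKM) followed, and their ranges over the mice overlapped.

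**Figure D1:**
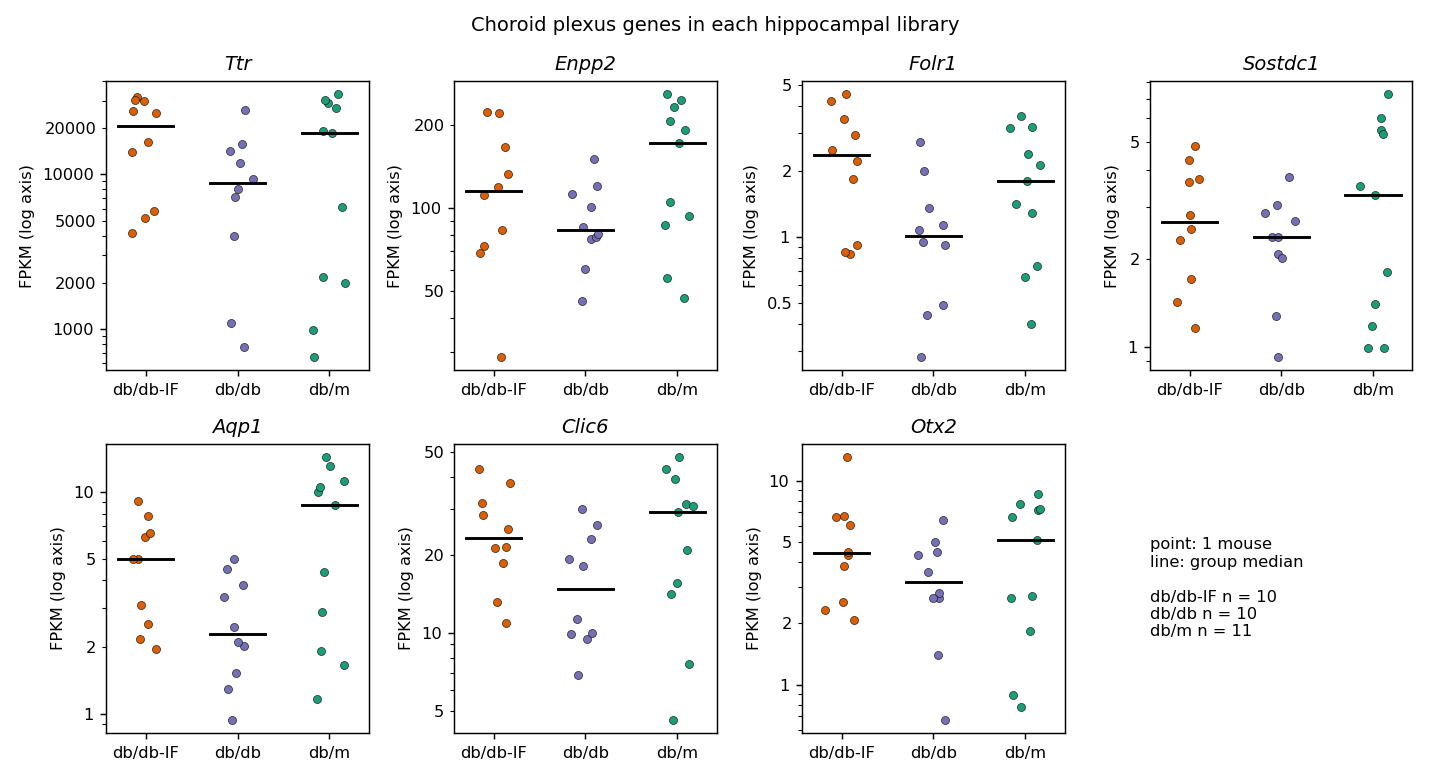
FPKM of the 7 choroid plexus genes (log axis, 1 panel a gene) in each mouse of the db/db-IF, db/db and db/m groups. Points are mice and lines are group medians, and in every panel the 3 groups overlap, with db/m mice spread from 660.0 to 32960 FPKM for Ttr.

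OTX2 binds letters of the bicoid type, TAATCC, and promoters were searched for them because the genes moved together across mice. RefSeq windows of 250 bases before a transcription start (GRCm38.p6) were searched on both strands, as TAATCC or GGATTA, which do not overlap each other. Windows were at hand for 3 of the 8 names, Aqp1, Otx2 and Kl, and 1 of these, Otx2 itself, held the letters. Among all genes with a window, 7.21% held them. The window of Otx2 shown is that of 1 of its 4 starts (chr14:48665110-48665359, minus strand), with the match in capitals, and it begins 211 bases before that start. The window of Aqp1 (chr6:55336049-55336298, plus strand) is shown because Aqp1 had the largest differences between groups at equal Ttr, and it held no match.
Otx2: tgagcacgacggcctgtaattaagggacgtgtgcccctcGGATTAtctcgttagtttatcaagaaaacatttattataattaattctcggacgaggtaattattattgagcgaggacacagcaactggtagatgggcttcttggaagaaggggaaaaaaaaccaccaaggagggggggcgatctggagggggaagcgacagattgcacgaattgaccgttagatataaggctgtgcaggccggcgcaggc
Aqp1: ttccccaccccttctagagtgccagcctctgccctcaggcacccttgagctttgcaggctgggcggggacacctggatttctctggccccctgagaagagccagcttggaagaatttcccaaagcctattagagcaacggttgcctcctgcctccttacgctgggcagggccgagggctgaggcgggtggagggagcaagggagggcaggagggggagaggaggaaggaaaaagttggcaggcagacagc
A match of 6 letters is a description of the window, and no match says only that these letters were not in it.

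The 7 genes varied together from mouse to mouse. With group means subtracted, Pearson's r with Ttr over the 31 mice on the log2(FPKM + 1) scale was 0.94 for Aqp1, 0.94 for Sostdc1, 0.92 for Otx2, 0.89 for Folr1, 0.87 for Clic6 and 0.74 for Enpp2. Spearman's rho was 0.94 for Aqp1, 0.93 for Sostdc1, 0.93 for Otx2, 0.87 for Folr1, 0.91 for Clic6 and 0.82 for Enpp2. Each of these 6 relations had a two-sided permutation p of 1e-05, the smallest that 100000 permutations within groups can give, and an adjusted p of 1e-05 over the 6. Leaving out the 2 mice farthest from the median of Ttr, db/m mouse 7 and db/db mouse 8, gave r between 0.69 (Enpp2) and 0.94 (Aqp1). Within the lower base-quality set r ran from 0.87 (Otx2) to 0.97 (Aqp1), and within the higher set from 0.70 (Enpp2) to 0.96 (Otx2). Within groups, r with Ttr was 0.93 in db/db-IF mice, 0.91 in db/db mice and 0.98 in db/m mice for Aqp1. For Enpp2 it was 0.38 in db/db-IF mice (permutation p = 0.286), 0.93 in db/db mice and 0.93 in db/m mice.

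Enpp2 in db/db-IF mouse 7 was the clearest departure from the common order. This mouse had 30100 FPKM of Ttr and 4.53 FPKM of Folr1, the highest Folr1 value of the 31 mice, beside 28.9 FPKM of Enpp2, the lowest Enpp2 value of the 31. Its library also had the lowest slope on transcript length (-0.240), and the longest GENCODE transcript is 1186 bases for Ttr and 1313 bases for Folr1, against 3095 bases for Enpp2. Whether the slope has a part in this mouse's values was not tested.

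Mice low in 1 gene were low in most of them. db/db mouse 8 and db/m mouse 7 were among the 5 lowest of 31 for all 7 genes, with 762.2 and 660.0 FPKM of Ttr. The 5 mice with the lowest mean over the 7 standardized genes were db/db mice 8 and 9 and db/m mice 1, 7 and 10. The 5 with the highest mean were db/db-IF mice 5 and 10 and db/m mice 5, 6 and 8. The db/m group thus held mice at both ends, the db/db group none among the highest 5 and the db/db-IF group none among the lowest 5.

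**Figure D2:**
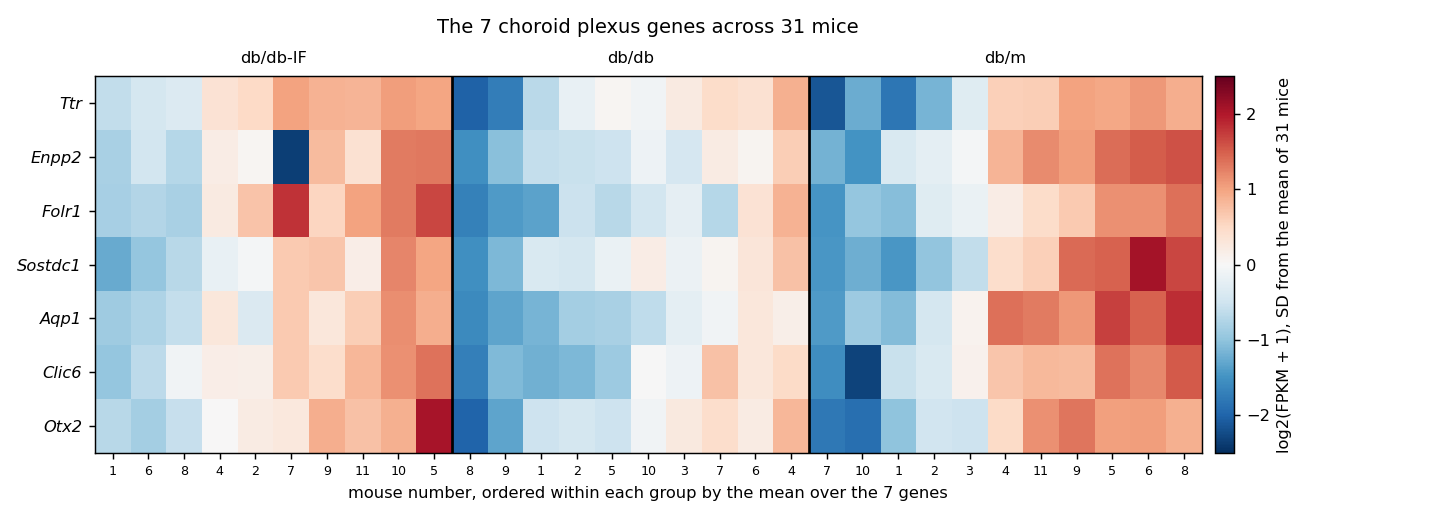
Standardized log2(FPKM + 1) of the 7 genes (rows, in SD from the mean of the 31 mice) in each mouse (columns, ordered within db/db-IF, db/db and db/m by the mean over the genes). Columns are mostly of 1 colour, apart from Enpp2 in db/db-IF mouse 7 (28.9 FPKM). Otx2 in db/db-IF mouse 5 (13.1 FPKM) is the highest Otx2 value, in a mouse whose mean over the 7 genes is also high.

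Fasting was compared first. In db/db-IF against db/db, 1 of the 7 genes was called by limma at an adjusted p under 0.05 over all 17139 loci, Folr1, and it was higher. In this comparison 23.7% of all loci were called higher and 27.4% lower, so 1 of 7 is below the share of all loci. Folr1 averaged 2.43 ± 1.36 FPKM in db/db-IF mice and 1.14 ± 0.751 FPKM in db/db mice (SD, n = 10 each), a log2 difference of 0.65 (SE 0.24, limma adjusted p = 0.0269). Ttr averaged 18747 ± 11019 FPKM in db/db-IF mice and 9838 ± 7669 FPKM in db/db mice, and its log2 difference of 1.20 had a 95% interval of -0.32 to 2.73 (limma adjusted p = 0.18). Aqp1 differed by 0.66 (95% interval -0.05 to 1.36, limma adjusted p = 0.112) and Clic6 by 0.62 (-0.07 to 1.32, limma adjusted p = 0.129). Otx2 differed by 0.46, Enpp2 by 0.29 and Sostdc1 by 0.18, all with intervals that held 0. All 7 differences were above 0, with a median of 0.62, against a median of -0.0244 over all tested loci. Since the 7 genes varied together across mice, their shared sign is not 7 separate observations.

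The call of Folr1 was narrow. It was lost without db/db-IF mouse 5 or 7 or without db/db mouse 8 or 9 (limma adjusted p between 0.0509 and 0.0592), after removing the trend on transcript length (0.54, limma adjusted p = 0.0621) and within each base-quality set (0.36, limma adjusted p = 0.411, in the lower one, and 0.94, limma adjusted p = 0.0762, in the higher one). Some markers of neighbouring tissue moved with the same comparison, in which 23.7% of all loci were called higher. Of 7 tested markers of ependyma and motile cilia 6 were higher in db/db-IF than in db/db mice, with summed levels of the 9 listed markers of 29.0 to 120.1 FPKM in db/db-IF mice and 20.6 to 56.0 FPKM in db/db mice. Plvap, a marker of fenestrated capillaries, was higher by 1.02 (limma adjusted p = 0.00672), and 3 of 3 red cell loci were higher, with sums of 110.8 to 437.3 FPKM in db/db-IF mice and 73.1 to 193.5 FPKM in db/db mice. Of 11 meningeal fibroblast markers, 1 was higher and 1 lower, with a median of 0.09. These marker differences are given without removing the trend on transcript length, whose slope was lower in every db/db-IF library than in any other. The part of that trend in the markers, and of these tissues in the Folr1 difference, was not tested.

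In db/db against db/m, 0 of the 7 genes were called by limma, and 1 (Aqp1) had an unadjusted p under 0.05. Of all loci, 2.96% were called higher and 2.79% lower at the adjusted threshold. At an unadjusted limma p under 0.05, 1804 of the 17139 loci were higher and 1615 lower. Aqp1 averaged 2.71 ± 1.39 FPKM in db/db mice (SD, n = 10) and 7.27 ± 4.96 FPKM in db/m mice (SD, n = 11), a log2 difference of -0.94 (95% interval -1.63 to -0.25, limma p = 0.0091, adjusted p = 0.0986). Aqp1 passed the threshold when libraries were weighted by their quality (-1.06, limma adjusted p = 0.0308) and without db/m mouse 7 (-1.10, limma adjusted p = 0.0407). The weights also raised the calls over all loci, to 6.955% higher and 5.105% lower. A permutation test of Aqp1 alone gave an unadjusted p of 0.0237. Enpp2 differed by -0.61 (95% interval -1.28 to 0.06), Clic6 by -0.51, Folr1 by -0.41, Otx2 by -0.25, Sostdc1 by -0.25 and Ttr by -0.23 (-1.72 to 1.26). The 7 differences all lay below 0, while the median of all tested loci was 0.0088, and db/db mice are shared by this comparison and the preceding one. Here too the 7 genes varied together, so their signs are not 7 separate observations.

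In db/db-IF against db/m, 0 of the 7 genes were called by limma, and 0 had an unadjusted p under 0.05. The permutation test of each gene gave no p under 0.05 either, and its smallest was 0.223, for Ttr. Of all loci, 26.2% were called higher and 29.4% lower at the adjusted threshold. At an unadjusted limma p under 0.05, 4813 of the 17139 loci were higher and 5546 lower. Ttr differed by 0.97 (95% interval -0.52 to 2.46), Folr1 by 0.24, Otx2 by 0.21 and Clic6 by 0.12. Sostdc1 differed by -0.07, Aqp1 by -0.28 and Enpp2 by -0.33 (95% interval -0.99 to 0.34). Ttr averaged 18747 ± 11019 FPKM in db/db-IF mice and 15296 ± 13132 FPKM in db/m mice, so the spread between mice exceeded the difference between groups.

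**Figure D3:**
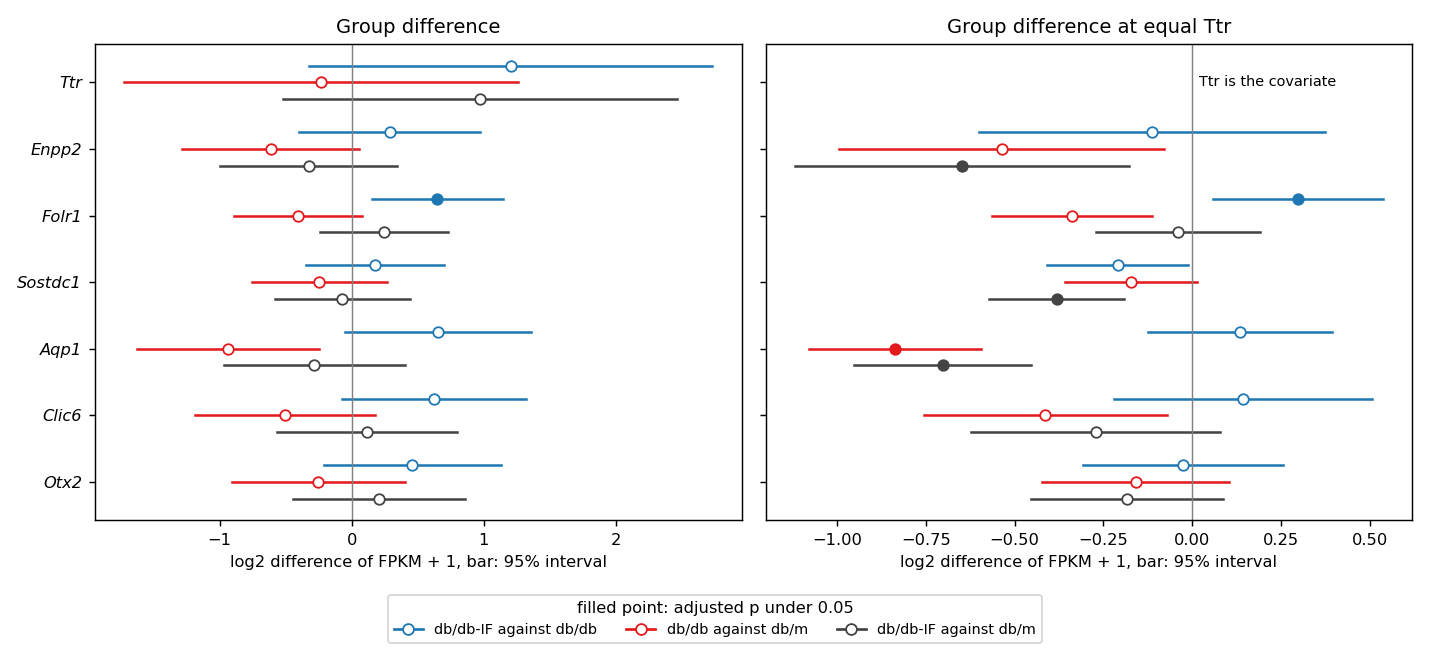
Log2 differences of the 7 genes in the 3 comparisons (points, filled where limma's adjusted p was under 0.05) with 95% intervals (bars), without a covariate on the left and with Ttr as a covariate on the right, on axes of different scale. Intervals are narrower at equal Ttr, where the Aqp1 difference of db/db against db/m is -0.84.

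Because Ttr differed so much between mice and the other genes varied with it, the groups were also compared at equal Ttr. Ttr was added to the linear model as a covariate, a choice made after the values had been seen. The slope on log2 Ttr lay between 0.29 (Folr1, SE 0.03) and 0.43 (Aqp1, SE 0.03). A difference at equal Ttr is a difference relative to Ttr, so it cannot be told apart from a change of Ttr in the opposite direction. Straight lines were fitted over the whole range of Ttr, in which 3 db/db and 4 db/m mice had less Ttr than any db/db-IF mouse. A test of whether slopes differ between groups gave adjusted p of 0.714 or more for all 6 genes, with unadjusted limma p of 0.00364 for Folr1, 0.00963 for Aqp1 and 0.0117 for Sostdc1.

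At equal Ttr, Aqp1 was lower in both diabetic groups than in db/m mice. In db/db against db/m, 1 of 6 genes was called, Aqp1, lower by 0.84 (log2 difference -0.84, SE 0.12, limma adjusted p = 0.000112), where 2.89% of all loci were called higher and 2.92% lower. For db/db-IF against db/m, 3 of 6 genes were called, all lower, where 25.4% of all loci were called higher and 28.4% lower. These were Aqp1 (log2 difference -0.70, SE 0.12, limma adjusted p = 3.08e-05), Sostdc1 (-0.38, SE 0.09, limma adjusted p = 0.00118) and Enpp2 (-0.65, SE 0.23, limma adjusted p = 0.0187). Fasted against fed db/db mice gave a call for 1 of 6 genes, Folr1, higher by 0.30 (SE 0.12, limma adjusted p = 0.0362), where 22.0% of all loci were called higher and 25.7% lower. The Aqp1 difference between db/db-IF and db/db mice at equal Ttr was 0.14 (95% interval -0.12 to 0.39, limma adjusted p = 0.395). The Folr1 call was lost without any 1 of db/db-IF mice 2, 5, 7, 10 and 11 or db/db mice 1, 3, 5 and 7 (limma adjusted p between 0.0524 and 0.095) and with the length trend removed (0.24, limma adjusted p = 0.0951). Without db/db-IF mouse 7, Enpp2 was also called lower in db/db against db/m (-0.53, limma adjusted p = 0.00742, against 0.164 with that mouse) and Folr1 too (-0.34, limma adjusted p = 0.0375). Clic6 was called lower in both comparisons with db/m without db/m mouse 10 (-0.55, limma adjusted p = 0.0143, in db/db mice and -0.37, limma adjusted p = 0.0236, in db/db-IF mice). Otx2 was called lower in db/db-IF against db/m without db/db-IF mouse 5 (-0.28, limma adjusted p = 0.0313), and Sostdc1 in db/db-IF against db/db without db/db-IF mouse 10 (-0.24, limma adjusted p = 0.0381). Folr1 also passed in db/db against db/m without db/db mouse 4 or 6 or db/m mouse 9 (limma adjusted p = 0.0498, 0.0485 and 0.05).

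The ratio of Aqp1 to Ttr is given per mouse as a description, since it falls as Ttr rises (slope under 1) and so does not compare mice at equal Ttr. Per 10000 FPKM of Ttr, Aqp1 had a median of 2.76 FPKM (1.90 to 4.68) in db/db-IF mice, of 2.95 FPKM (1.73 to 12.4) in db/db mice and of 5.69 FPKM (2.89 to 17.8) in db/m mice. The ratios of the 3 groups overlapped, and the highest of each fed group was that of its mouse with the least Ttr, db/db mouse 8 and db/m mouse 7. Removing the trend on transcript length left the Aqp1 difference at -0.83 in db/db against db/m (limma adjusted p = 7.73e-05) and at -0.60 in db/db-IF against db/m (limma adjusted p = 0.000155). Within the higher base-quality set alone, the Aqp1 difference was -0.59 in db/db against db/m (limma adjusted p = 0.409) and -0.60 in db/db-IF against db/m (limma adjusted p = 0.0564). That set has 5 mice a group, and 1 of all 17138 loci tested at equal Ttr was called in it for db/db against db/m. Sostdc1 (-0.32, limma adjusted p = 0.114) and Enpp2 (-0.81, limma adjusted p = 0.216) were not called in it for db/db-IF against db/m either.

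Exchanging Ttr for the mean of the other 6 genes as the covariate, again chosen after the values had been seen, moved some of this difference to Ttr. Ttr was then higher by 0.94 in db/db mice against db/m mice (SE 0.26, limma adjusted p = 0.0376) and by 0.98 in db/db-IF mice against db/m mice (SE 0.25, limma adjusted p = 0.00146). Aqp1 was still called lower, with a log2 difference of -0.53 (SE 0.10, limma adjusted p = 0.00297) in db/db against db/m and of -0.40 (SE 0.10, limma adjusted p = 0.00141) in db/db-IF against db/m. Enpp2 was not called with this covariate in any comparison (-0.43 in db/db-IF against db/m, limma adjusted p = 0.0731), and the Sostdc1 call in db/db-IF against db/m was lost as well (-0.14, limma adjusted p = 0.164). Between db/db-IF and db/db mice, Folr1 was higher by 0.33 (limma adjusted p = 0.0192) and Sostdc1 lower by 0.26 (log2 difference -0.26, limma adjusted p = 0.0158).

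**Figure D4:**
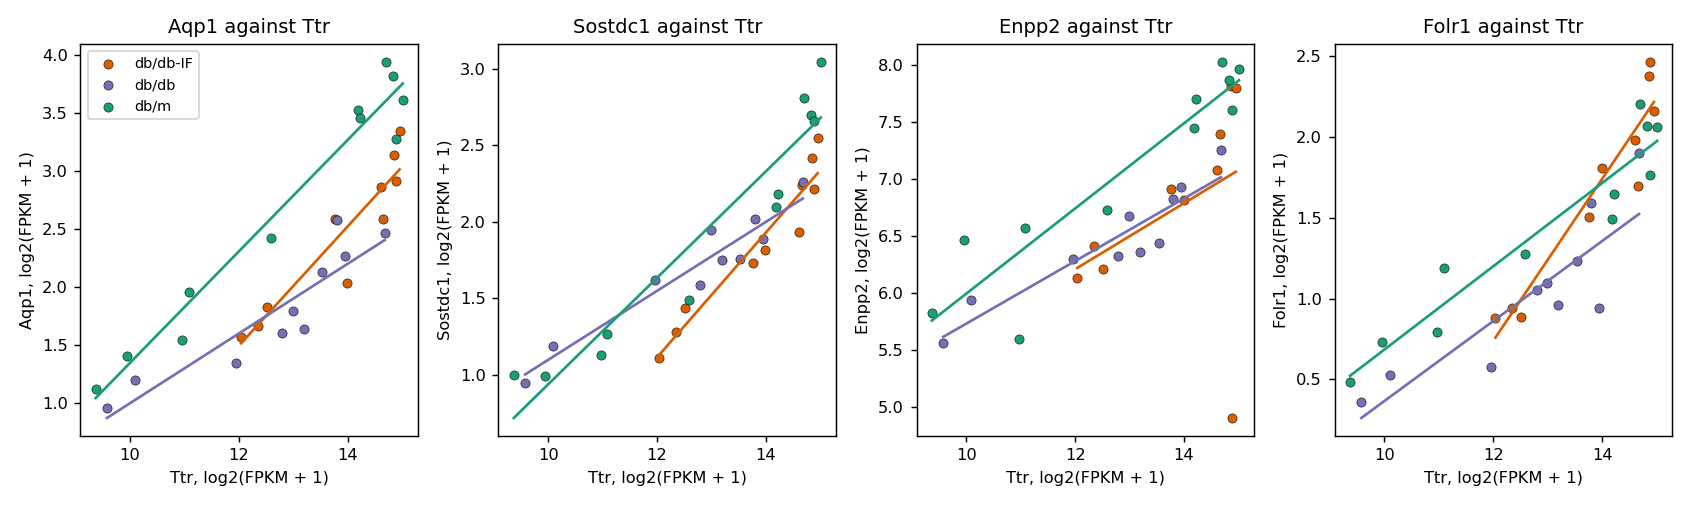
Aqp1, Sostdc1, Enpp2 and Folr1 against Ttr in each mouse, both on the log2(FPKM + 1) scale, with 1 straight line per group of db/db-IF, db/db and db/m mice. Most db/m points of Aqp1 lie above those of both diabetic groups at the same Ttr, and 1 db/db-IF mouse lies far below the others for Enpp2.

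A further 43 genes known from choroid plexus were followed in lists by role, of which 38 were tested. They moved with the 7 genes. The correlation of each with the mean of the 7 standardized genes over the 31 mice, with group means subtracted, had a median of 0.89 over these 38, against 0.01 over all tested loci. It exceeded 0.8 for 28 of the 38 and for 63 of all tested loci. These 63 include the same 28 and the 7 genes themselves, which make up the mean. The 8 ion transporters and channels had a median of 0.93, the 8 solute transporters 0.88, the 7 secreted proteins and carriers 0.89, the 9 receptors and enzymes 0.89 and the 5 junction and keratin genes 0.83. Slc12a2, the sodium-potassium-chloride cotransporter, followed them least (0.24). These correlations share the libraries and are given without a test.

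Markers of other cells did not share this order to the same degree. The median correlation with the 7 genes was -0.06 for 12 hippocampal neuron markers, 0.14 for 8 oligodendrocyte markers, 0.16 for 8 markers of thalamus and habenula, 0.13 for 7 markers of ependyma and motile cilia, 0.30 for 11 markers of meningeal fibroblasts and 0.10 for 3 red cell loci. Plvap had 0.30 and the 1 tested marker of border macrophages 0.24. The highest among them was Rsph1, a gene of motile cilia, with 0.60. Oligodendrocyte markers, whose cells also make Enpp2, summed to 5215 to 9469 FPKM in db/db-IF mice, 5311 to 7547 FPKM in db/db mice and 4244 to 9851 FPKM in db/m mice.

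**Figure D5:**
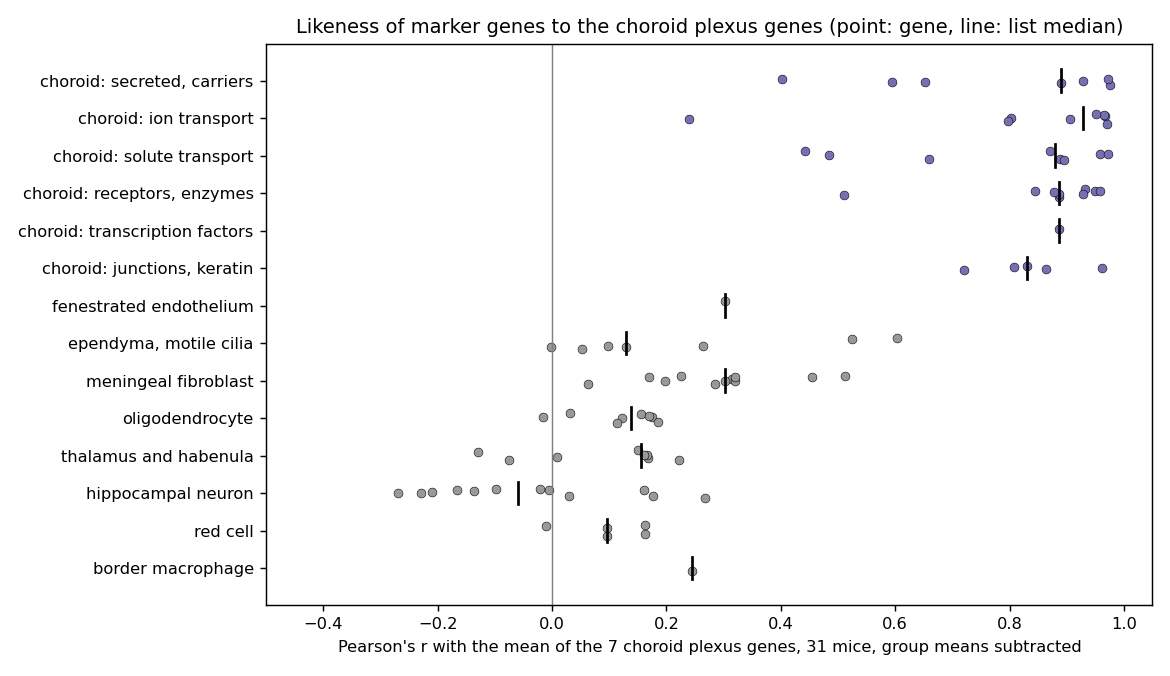
Pearson's r of each marker gene (points) with the mean of the 7 choroid plexus genes over 31 mice with group means subtracted, by list, with the list median as a line (2 of the 3 red cell loci carry 2 listed names each and are drawn under both). Choroid plexus lists have medians from 0.83 to 0.93, and lists of other cells from -0.06 to 0.30.

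Of the 38 further choroid plexus genes, 9 rose and 0 fell in db/db-IF against db/db, with a median log2 difference of 0.34. Over all loci 23.7% were called higher and 27.4% lower, so 9 of 38 is near the share called higher. The trend on transcript length was not removed from these values. Those of the 38 with the smallest adjusted p included Ace (0.68, limma adjusted p = 0.00609), Igf2 (0.68, limma adjusted p = 0.00665) and Igfbp2 (0.69, limma adjusted p = 0.00896). Ace cleaves angiotensin I, Igf2 is a growth factor and Igfbp2 binds insulin-like growth factors. Igf2 is also expressed by meningeal cells. Igfbp2 averaged 150.6 ± 51.0 FPKM in db/db-IF mice and 92.0 ± 30.1 FPKM in db/db mice.

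In db/db against db/m, 0 of the 38 genes rose and 2 fell, with a median of -0.30, where 2.96% of all loci were called higher and 2.79% lower. Vat1l fell by 0.60 (limma adjusted p = 0.00841) and Slc12a2 fell by 0.35 (limma adjusted p = 0.0277). Both followed Ttr and the other genes described first less than most of the 38 did. Their correlations with the mean of those genes were 0.51 (Vat1l) and 0.24 (Slc12a2), against a median of 0.89 over the 38. At equal Ttr their differences were nearly the same, -0.58 for Vat1l and -0.35 for Slc12a2. Whether Vat1l and Slc12a2 fell in choroid plexus cells or in others was not tested. Slc4a2, an anion exchanger, differed by -0.38 (limma adjusted p = 0.0689) and Igfbp2 by -0.58 (limma adjusted p = 0.103). Between db/db-IF and db/m, 2 rose and 2 fell, with a median of 0.04, where 26.2% of all loci were called higher and 29.4% lower. Slc12a2 fell by 0.48 (limma adjusted p = 0.000154), Vat1l fell by 0.54 (limma adjusted p = 0.0017) and Spint2, a serine protease inhibitor, rose by 0.30 (limma adjusted p = 0.031). Vat1l averaged 2.56 ± 0.671 FPKM in db/db-IF mice, 2.41 ± 0.724 FPKM in db/db mice and 4.24 ± 1.58 FPKM in db/m mice.

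Relative to Ttr, further genes were lower in the diabetic groups. This cannot be told apart from a higher Ttr in these groups, which would move all of them together. The further genes are not given with the mean of the other genes as the covariate. Of the 38, 0 were higher and 10 lower in db/db against db/m, with a median of -0.23, where 2.89% of all loci were called higher and 2.92% lower. In db/db-IF mice against db/m, 2 were higher and 18 lower, with a median of -0.20, where 25.4% of all loci were called higher and 28.4% lower. Among the 8 ion transporters and channels 4 were lower in db/db against db/m and 6 in db/db-IF against db/m. Kcne2, a potassium channel subunit, was lower by 0.69 (log2 difference -0.69, limma adjusted p = 0.000646) in db/db against db/m and by 0.66 (-0.66, limma adjusted p = 5.36e-05) in db/db-IF against db/m. Kcnj13, an inward rectifier potassium channel, differed by -0.34 (limma adjusted p = 0.0335) and -0.57 (limma adjusted p = 3.4e-05) in the same comparisons. F5, coagulation factor V, differed by -0.56 (limma adjusted p = 0.00293) and -0.59 (limma adjusted p = 0.0001). At equal Ttr in db/db-IF against db/db, 6 of the 38 were higher and 2 lower, with a median of -0.03, where 22.0% of all loci were called higher and 25.7% lower.

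Of these 43 genes, 38 had promoter windows, and 5 (13.2%) held TAATCC or GGATTA in the 250 bases before a start. Among all genes with a window the share was 7.21%. Some genes have several windows, and counted by window the shares were closer, 5 of 51 (9.8%) against 6.25% of all 32851 windows. The count of 5 is small, and the shares were not tested. The stretches around the match are shown, with the match in capitals, because these are the genes of the lists that share with an Otx2 start the letters OTX2 binds. They are on chromosome 3 (Car14, minus strand, 95904729 to 95904758, and Abca4, plus strand, 122044390 to 122044419), chromosome 11 (Ace, plus strand, 105967909 to 105967938), chromosome 9 (Mfrp, plus strand, 44101624 to 44101653) and chromosome 8 (Vat1l, plus strand, 114205549 to 114205578).
Car14: atcctgcatgccTAATCCgctatttaagga
Abca4: gtaattagagggGGATTAtgcttgaagggg
Ace: ggctgggttttaTAATCCgcagggcggtcg
Mfrp: ctcagctgagttGGATTAaggaccattccg
Vat1l: cggctcctctaaGGATTAcggcggaggcgg
The match began 61 bases before the start in Car14, 58 in Abca4, 27 in Ace, 134 in Mfrp and 79 in Vat1l. The correlation with the 7 genes was 0.80 for Car14, 0.90 for Abca4, 0.89 for Ace, 0.93 for the locus that Mfrp shares with C1qtnf5 and 0.51 for Vat1l, so the genes with the letters lay on both sides of the list median.

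The 15 genes most like the mean of the 7, by Pearson's r over the 31 mice with group means subtracted, were taken among named genes, leaving out loci with only a clone name, and ran from F5 (r 0.97, rho 0.97) to Prlr (r 0.93, rho 0.93), the prolactin receptor. Of the loci left out, 2 are in the choroid plexus lists and had correlations as high, 1500015O10Rik (r 0.98) and 2900040C04Rik (r 0.96). Of the 15, 10 were among the 43 listed genes: F5, Steap1, Kcnj13, Kcne2, Slc4a5, Krt18, Slc16a8, Trpv4, Tmem72 and Prlr. The other 5 were Prr32 (r 0.97), Col8a2 (r 0.95), Drc7 (r 0.94), Wfdc2 (r 0.94) and Gpx8 (r 0.93). Col8a2, a collagen of basement membranes, averaged 27.1 ± 12.7 FPKM in db/db-IF mice, 19.1 ± 8.39 FPKM in db/db mice and 33.6 ± 19.1 FPKM in db/m mice. At equal Ttr it differed by -0.58 in db/db against db/m (limma adjusted p = 0.00206) and by -0.62 in db/db-IF against db/m (limma adjusted p = 5.23e-05). Without the covariate, Wfdc2 was the only gene of the 15 called in db/db-IF against db/db (0.60, limma adjusted p = 0.0388), and none of the 15 was called by limma in the other 2 comparisons. Gpx8 varied least relative to its mean of the 5 unlisted genes, with 3.87 ± 0.836 FPKM in db/db-IF mice, 3.37 ± 0.798 FPKM in db/db mice and 3.69 ± 1.22 FPKM in db/m mice.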

How the data were processed

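Total RNA of the hippocampus was sequenced on a BGI-500 instrument, 1 library per mouse. Per the labels and methods, the authors trimmed reads with Trimmomatic (0.38), aligned them to GRCm38.p6 with HISAT2 and estimated FPKM with StringTie (1.3.4d), and the deposited table of FPKM values holds 31 mice and 27094 loci, of which 1345 carry no gene name. FPKM were tested as log2(FPKM + 1) with limma (3.58.1, trend, two-sided) in R (4.3.3), on loci above 1 FPKM in at least 10 mice, with 3 group means and Benjamini-Hochberg adjustment. A fold change on this scale understates that of low genes. The authors tested with Ballgown, and which contrasts they fitted is not given in the sources used here, so the 3 pairs of groups were compared, with the same minimum of FPKM. Correlations used 100000 permutations of mice within groups. Single-gene permutation tests used as many. Named genes were the 7 members, in each comparison the 4 further choroid plexus genes with the smallest adjusted p, and the 15 most alike loci with 1 symbol. Of the further choroid plexus genes the rule picked, 1 is not reported here. Kcnj13, Kcne2, F5 and Col8a2 at equal Ttr, Wfdc2, Gpx8, Rsph1, Plvap and the genes with promoter matches were picked after their values were seen. The members, lists and covariates were chosen with earlier results of these data known. Gbx2 and Pou4f1 of the thalamus and habenula list were not analysed here, and 1 border macrophage marker of 5 passed the filter. Base-quality sets came from the study's sequencing summary. Age is 3 months in the labels and 4 months at the start of fasting in the methods. Library read totals are in the study's sequencing summary, but counts per locus were not used, so no counting error was given.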

Additional observations from a re-analysis of the deposited data

Results flagged for a closer look

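Otx2 in db/db-IF mouse 5 lay far from the rest of its group in FPKM. It had 13.1 FPKM, and the next highest db/db-IF mouse had 6.69 FPKM, a gap of 0.581 of the group's range, above Dixon's critical value for 10 mice. On the log2(FPKM + 1) scale of the tests these were 3.82 and 2.94, with the lowest at 1.62, a gap that does not reach the critical value. The flag thus depends on the scale. This was the 1 such value among 14 groups of 10 mice examined in FPKM (7 genes in db/db-IF and in db/db mice). A chance of about 1 in 20 assumes normally distributed values, which was not tested. The db/m group, with 11 mice, was not examined this way. The same mouse was among the 5 highest of 31 for 5 of the 7 genes, with 29590 FPKM of Ttr.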

How the results depend on the processing

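In db/db-IF against db/db, Folr1 was the 1 gene called. Within the lower or the higher base-quality set, or after removing the length trend, 0 were called. An unadjusted permutation p under 0.05 was found for 3. Of all 17139 loci, 4540 were higher and 5212 lower at an unadjusted limma p under 0.05, so such a p was common. Leaving out 1 mouse at a time gave 0 to 1 gene called. In db/db against db/m 0 were called. Array weights gave 1, where 6.955% of all loci were called higher and 5.105% lower. The permutation test gave 1, and leaving out 1 mouse gave 0 to 1. Between db/db-IF and db/m the count was 0 under every alternative run. The count of correlations with Ttr was 6, and 5 within db/db-IF mice alone (without Enpp2), the 1 alternative run that changed it. The replicate number did not pair mice: of 29 same-numbered pairs 2 had a correlation of deviations over 0.1 (range -0.27 to 0.16). With the replicate number as a block, 0 genes were called in db/db-IF against db/db (Folr1 0.62, limma adjusted p = 0.0565), and at equal Ttr the block lost Folr1 (adjusted p = 0.0943) and added Sostdc1 (adjusted p = 0.0412), so that count stayed at 1.

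Differences that were not called changed sign within a base-quality set. In the lower set this held for Sostdc1 in db/db-IF against db/db (-0.12), Ttr in db/db against db/m (0.29) and Clic6 in db/db-IF against db/m (-0.32), and in the higher set for Sostdc1 (0.12) and Aqp1 (0.037) in db/db-IF against db/m. Without 1 mouse, Ttr in db/db against db/m ran from -0.58 to 0.11, Sostdc1 in db/db-IF against db/m from -0.17 to 0.040 and Clic6 from -0.083 to 0.23.

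At equal Ttr, in db/db-IF against db/db, 0 genes were called with the length trend removed and in either base-quality set, and 2 with a pseudocount of 0.1 (Folr1 and Sostdc1), and leaving out 1 mouse gave 0 to 1. Here Otx2 changed sign with the length trend removed (0.059), in the lower set (0.10) and under quantile normalization (0.058), Enpp2 in the lower set (0.22) and under quantile normalization (0.007), and Clic6 (-0.21) and Aqp1 (-0.003) in the higher set. Without 1 mouse Otx2 ran from -0.12 to 0.017 and Enpp2 from -0.18 to 0.096. In db/db against db/m, 2 were called with the length trend removed and with a pseudocount of 0.1 (Folr1 beside Aqp1), 3 in the lower set and 0 in the higher one, where Clic6 was at 0.15, and 1 to 3 without 1 mouse. Between db/db-IF and db/m, 0 were called in the higher set, where Folr1 was at 0.052, and 3 to 4 without 1 mouse, with Folr1 from -0.089 to 0.013. The cause of these changes was not tested. The sets hold 5 or 6 mice a group, so their tests rest on fewer mice.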
